A study of Homo sapiens with 5 samples.

Results

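The machinery that takes cytoplasmic and nuclear mRNA apart was followed in SH-SY5Y cells, an established human line from a neuroblastoma that takes on neuron-like features under differentiating conditions. The members were 52 genes listed by symbol, which encode decapping factors, the LSM ring, 5' exonucleases, deadenylases with their adaptors, the RNA exosome and the SKI complex. All 52 had a value in each of the 5 libraries, of 26364 gene symbols in all. The values of the members ran between 3.54 and 13.34 on the deposited log2 scale, and 0 members were listed at 0 in any library.

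Each group was 1 library of SH-SY5Y cells made by QuantSeq, a kit that reads the 3' ends of polyadenylated RNA, so that a value does not scale with transcript length. The groups were cells labelled siSTAU1, siUPF1 and siControl, named for an siRNA against STAU1, an siRNA against UPF1 and a control siRNA, and cells labelled Differentiation and Nondifferentiation. All 5 media contained 10% serum and 1% antibiotics, and the labels list 50 uM retinoic acid for both Differentiation and Nondifferentiation. The sources used here give no times, siRNA sequences or siRNA doses. The study sought transcripts raised by loss of STAU1, by loss of UPF1 and by differentiation alike. With 1 library per group there is no replicate spread and no test, so every difference below is between 2 libraries and is set beside its counting error and beside all genes. In bulk samples fewer cells with an mRNA and less of it per cell cannot be told apart.

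Depth was estimated from how far apart the lowest values lie, and came to between 1.57e+07 and 1.84e+07 reads for siSTAU1, siUPF1, siControl and Nondifferentiation and 3.2e+07 for Differentiation. STAU1 stood at 11.34 in siSTAU1 against 12.87 in siControl, and UPF1 at 9.20 in siUPF1 against 10.74 in siControl. In Differentiation and Nondifferentiation STAU1 stood at 12.86 and 12.86, and UPF1 at 10.69 and 10.62. All 10 noradrenergic neuroblastoma markers were above 0 in every library, with a summed linear value of 36256 in Differentiation and 45186 to 50744 in the other libraries. Of 10 epithelial markers, 10 were above 0 in siSTAU1, 8 in siUPF1, 5 in siControl, 10 in Differentiation and 5 in Nondifferentiation. Their summed linear values were 1152, 635.2, 635.8, 514.6 and 596.0 in the same libraries. CLDN7 was the highest of them in each, at 8.96, 8.91, 9.16, 8.50 and 9.07. KRT18 stood at 7.56 in siSTAU1 and 2.49 in siControl, and KRT8 at 7.53 and 2.49. KRT19, CDH1, CLDN4, ESR1, TFF1 and ELF3 were also higher in siSTAU1 than in siControl, while CLDN7 and EPCAM were lower. CDH1, ESR1, TFF1 and ELF3 were listed at 0 in siControl and Nondifferentiation, and the part of these markers in the results was not tested. The summed linear value of 10 mesenchymal markers was 108319 in Differentiation and 52968 to 64687 elsewhere. Most of that sum is FN1, at 16.63 in Differentiation and 15.45 in Nondifferentiation. COL3A1 stood at 11.66 and 9.21 and COL1A1 at 5.96 and 4.28 in the same libraries, and SNAI2 at 3.32 and 3.26. VIM stood lower in Differentiation, at 11.27 against 12.52, as did TAGLN, at 6.47 against 8.13. ACTA2, COL1A2 and TWIST1 were also lower in Differentiation. The median log2 value of the 10 was 7.33 in Differentiation and 8.33 in Nondifferentiation. Of 8 hepatocyte markers at most 3 were above 0 in a library, and the sum was 536.0 in siUPF1 and 6.40 to 137.0 elsewhere. The blood marker PTPRC was listed at 0 in all 5, and the 6 blood markers summed to between 64.6 and 236.6.

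As background, most mRNAs are degraded after their poly(A) tail has been shortened. PAN2-PAN3 and the CCR4-NOT complex remove the tail, and the mRNA is then either decapped by DCP2 with help from the LSM1 to LSM7 ring, PATL1 and DDX6 and degraded from the 5' end by XRN1, or degraded from the 3' end by the RNA exosome with the SKI complex. UPF1 feeds its targets into these routes in nonsense-mediated and Staufen-mediated decay, the pathway in which STAU1 recruits UPF1. In the nucleus the exosome also trims ribosomal and other stable RNAs.

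In Differentiation against Nondifferentiation 3 of 7 measured exosome core genes and 3 of 7 LSM genes were at least 2-fold lower, beside DCPS and PATL1. The other measured genes of both classes were not. A gene was counted as measured when the larger of its 2 values reached the median nonzero value of the pair, a log2 value of 7.76 here, and 45 of the 52 members were. Of these 45, 8 were at least 2-fold lower and 0 were at least 2-fold higher, which is 17.8% counted, against 21.3% of all 9064 measured genes. By direction, 10.9% of all measured genes were 2-fold lower and 10.4% were 2-fold higher. The 8 were DCPS, PATL1, LSM2, LSM3, LSM4, EXOSC2, EXOSC7 and EXOSC9. At a threshold of 1.5-fold, 15 members were lower and 3 were higher, or 40%, where 21.7% of all measured genes were lower, 21.8% were higher and 43.6% were counted in either direction. The machinery as a whole was thus counted about as often as other genes. The median log2 fold was -0.17 over the 45 members and 0.02 over all measured genes.

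**Figure D1:**
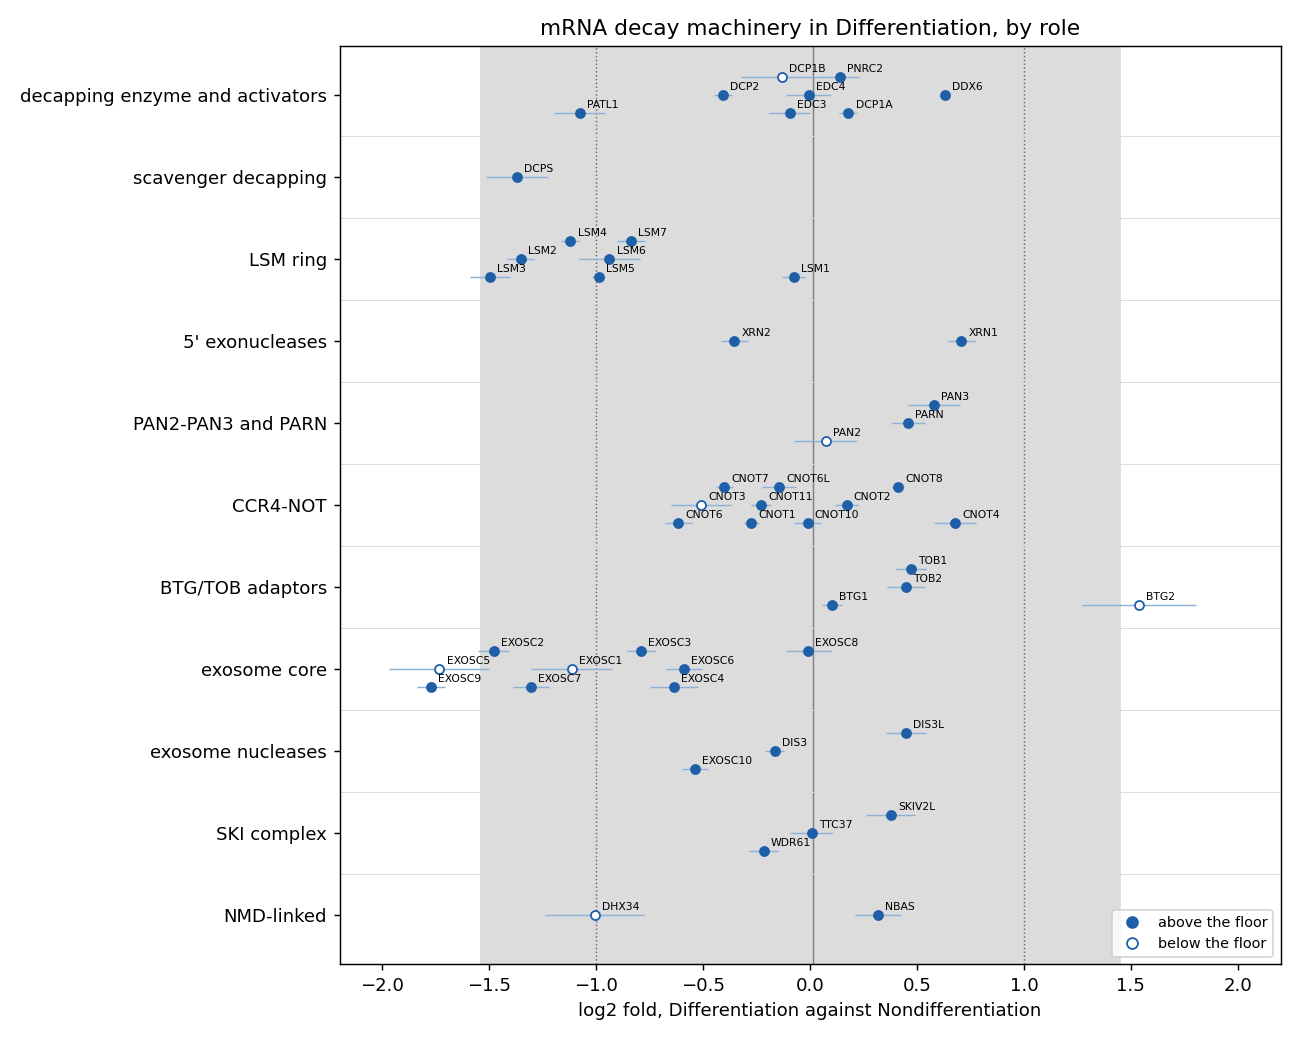
Log2 fold of Differentiation against Nondifferentiation (x axis) for the 52 members, by role (y axis). Bars are the counting SE, open points lie below the floor on low values, the grey band holds the middle 90% of all measured genes with their median as a line, and dotted lines mark 2-fold. The LSM ring and the exosome core lie left of 0, with DCPS alone at -1.37 and medians over measured members of -0.99 for the LSM ring and -0.79 for the exosome core.

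The exosome core is a barrel of 9 subunits, of which EXOSC1, EXOSC2 and EXOSC3 form the RNA-binding cap and EXOSC4 to EXOSC9 the ring. All 9 had a negative log2 fold in Differentiation, between -1.77 and -0.01, and 48.7% of all measured genes were at or below the higher of these. The median was -0.79 over the 7 measured subunits and -1.11 over all 9, 2 of which lay below the floor. Of the 7 measured subunits 3 were 2-fold lower, against 10.9% of all measured genes, and 6 were 1.5-fold lower, against 21.7%. Both counts include EXOSC9, whose fold is uncertain for a reason given next.

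EXOSC9 stood at 10.62 in siSTAU1, 10.45 in siUPF1, 10.92 in siControl, 8.85 in Differentiation and 10.62 in Nondifferentiation. Its log2 fold in Differentiation, -1.77 with a counting SE of 0.06, was the lowest of the 52 members, and 3.64% of all measured genes had one as low or lower. The last 300 bases of EXOSC9 overlap an exon of CCNA2, the cell cycle gene cyclin A2, on the opposite strand in the GENCODE annotation. CCNA2 stood at 7.61 in Differentiation and 9.69 in Nondifferentiation, a log2 fold of -2.08. No source used here states whether reads were counted by strand, so reads of the 2 genes cannot be told apart and the fold of EXOSC9 is uncertain.

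The other ring subunits do not share this overlap, except EXOSC8, whose end overlaps SUPT20H on the opposite strand. EXOSC7 stood at 9.65 in siSTAU1, 9.42 in siUPF1, 9.34 in siControl, 8.26 in Differentiation and 9.57 in Nondifferentiation. Its log2 fold of -1.31 with a counting SE of 0.08 is a 2.47-fold lower value in Differentiation. EXOSC6 stood at 9.37 in siSTAU1, 9.19 in siUPF1, 9.29 in siControl, 8.58 in Differentiation and 9.17 in Nondifferentiation, and EXOSC4 at 8.66, 8.50, 8.45, 7.79 and 8.42 in the same libraries. Both were between 1.5-fold and 2-fold lower in Differentiation, at -0.59 and -0.64. EXOSC8 stood at 8.54 in siSTAU1, 8.80 in siUPF1, 8.70 in siControl, 8.29 in Differentiation and 8.29 in Nondifferentiation. It was the only core subunit within 1.5-fold, at -0.01 with a counting SE of 0.11. SUPT20H had 0.07 in the same pair. EXOSC5 lay below the floor, with 5.15 in Differentiation, from about 58 reads, and 6.89 in Nondifferentiation, from about 112 reads. EXOSC5 had 7.23, 7.25 and 7.16 in siSTAU1, siUPF1 and siControl, so the Differentiation value was the lowest of the 5.

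Of the cap subunits, EXOSC2 stood at 10.00 in siSTAU1, 10.26 in siUPF1, 10.40 in siControl, 8.61 in Differentiation and 10.09 in Nondifferentiation. Its log2 fold was -1.48 with a counting SE of 0.07, or 2.79-fold lower. EXOSC3 stood at 9.88 in siSTAU1, 9.85 in siUPF1, 9.93 in siControl, 9.22 in Differentiation and 10.01 in Nondifferentiation, a log2 fold of -0.79. EXOSC1 lay below the floor at 5.98 in Differentiation and 7.09 in Nondifferentiation, from about 103 and 129 reads. In the 4 libraries other than Differentiation the values of EXOSC1 lay within 0.13 and those of EXOSC3 within 0.16 of each other. For both genes the gap below those libraries, 1.00 and 0.63, was larger than that spread.

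**Figure D2:**
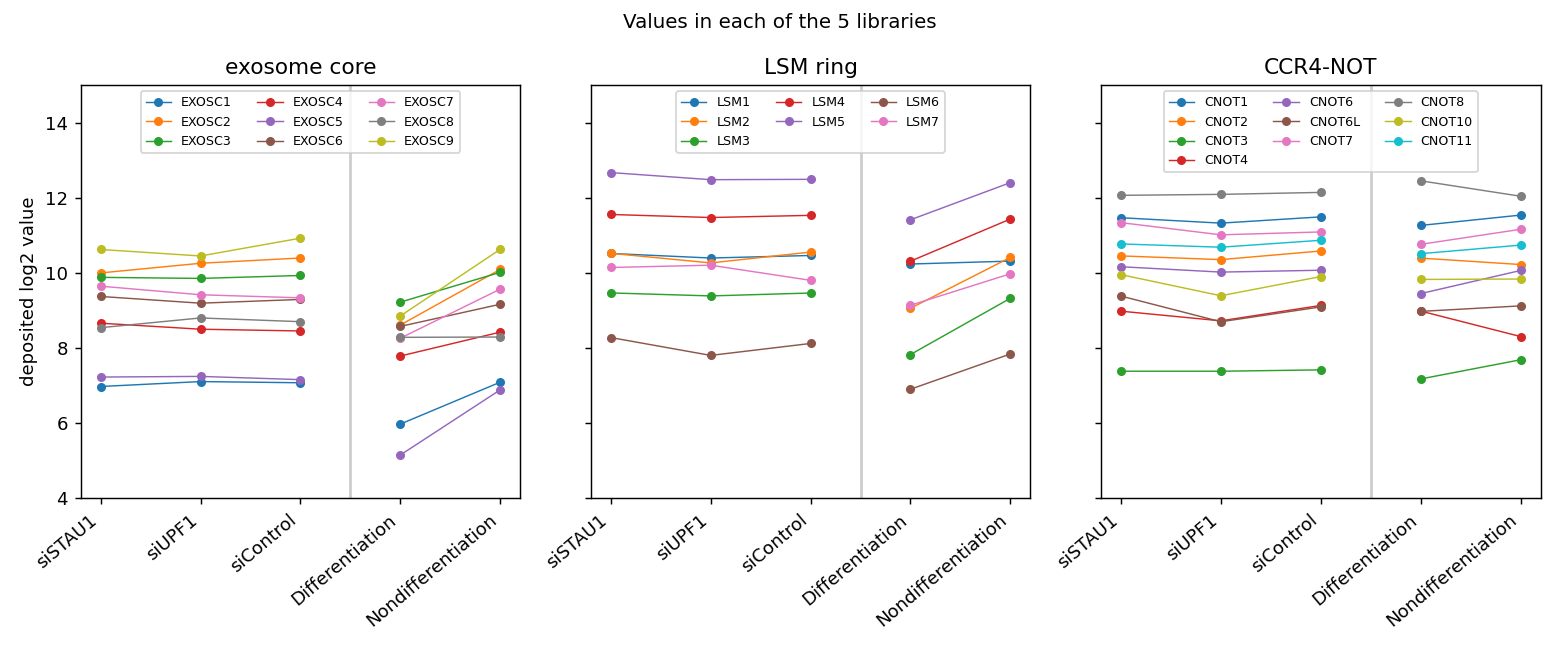
Deposited log2 value (y axis) of each exosome core, LSM ring and CCR4-NOT subunit in the 5 libraries (x axis). Lines join libraries set against each other and carry no order. All exosome core and LSM values are lowest in Differentiation, by only 0.01 for EXOSC8 and 0.08 for LSM1, while CCR4-NOT subunits lie on both sides.

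LSM2 to LSM7 are shared by 2 rings, a cytoplasmic one completed by LSM1, which binds the shortened tails of mRNAs and promotes decapping, and a nuclear one completed by LSM8, which binds U6 RNA. The 6 shared subunits had log2 folds between -1.50 and -0.84 in Differentiation, with a median of -1.06. LSM1 had -0.08 with a counting SE of 0.05. LSM8, taken from a list of other decay genes, had -0.43, from 9.46 in Differentiation and 9.89 in Nondifferentiation. The subunits common to both rings thus had lower log2 folds than either ring's own subunit, and 3 of them were counted as 2-fold lower, against 10.9% of all measured genes.

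LSM3 stood at 9.47 in siSTAU1, 9.39 in siUPF1, 9.46 in siControl, 7.83 in Differentiation and 9.32 in Nondifferentiation. This is the lowest of the ring, -1.50 with a counting SE of 0.10, against a spread of 0.14 over the other 4 libraries. LSM2 stood at 10.52 in siSTAU1, 10.27 in siUPF1, 10.55 in siControl, 9.06 in Differentiation and 10.41 in Nondifferentiation, 2.55-fold lower in Differentiation. LSM4 stood at 11.55 in siSTAU1, 11.47 in siUPF1, 11.53 in siControl, 10.31 in Differentiation and 11.43 in Nondifferentiation, 2.18-fold lower. These 3 were clear of the other libraries by more than 1 log2 unit. LSM5 stood at 12.67, 12.48, 12.49, 11.41 and 12.40 in siSTAU1, siUPF1, siControl, Differentiation and Nondifferentiation, just under 2-fold lower at -0.99. LSM6 stood at 8.28, 7.80, 8.12, 6.90 and 7.84 in these libraries, and LSM7 at 10.14, 10.20, 9.80, 9.14 and 9.98. Their log2 folds in Differentiation were -0.94 and -0.84. LSM1 stood at 10.52 in siSTAU1, 10.40 in siUPF1, 10.46 in siControl, 10.24 in Differentiation and 10.31 in Nondifferentiation. An exon of an unnamed gene model on the opposite strand overlaps the end of LSM1, and pseudogenes named after LSM1, LSM3 and LSM6 could share their reads. The same holds for DDX6, PNRC2, CNOT4, CNOT6L, CNOT7, TOB2, BTG1 and EXOSC3, which makes 11 members in all.

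Promoters are shown for the 3 measured members with the lowest log2 folds in Differentiation and for XRN1, the measured member with the highest, as examples of genes on either side. Each run is the 250 bases before the RefSeq start in the gene's own direction, from GRCh38.p14, and capitals mark matches on either strand to CCAAT (the CCAAT box), CCGGAA (an ETS site) or CACGTG (an E-box), or to an NRF1 site. A match to CCGGAA on the other strand reads TTCCGG, and one to CCAAT reads ATTGG. No matches overlap each other.
EXOSC9, chr4:121801073-121801322, plus strand: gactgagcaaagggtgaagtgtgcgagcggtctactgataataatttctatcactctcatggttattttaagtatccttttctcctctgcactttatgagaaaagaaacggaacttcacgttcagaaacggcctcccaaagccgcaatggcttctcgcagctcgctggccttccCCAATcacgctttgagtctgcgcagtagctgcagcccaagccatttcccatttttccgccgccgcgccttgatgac
LSM3, chr3:14178567-14178816, plus strand: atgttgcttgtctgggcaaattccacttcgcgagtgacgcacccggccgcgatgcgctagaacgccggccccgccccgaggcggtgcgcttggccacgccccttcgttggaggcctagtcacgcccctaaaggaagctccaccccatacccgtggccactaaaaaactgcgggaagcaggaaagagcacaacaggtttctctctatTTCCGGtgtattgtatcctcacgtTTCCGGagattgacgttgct
EXOSC2, chr9:130693510-130693759, plus strand: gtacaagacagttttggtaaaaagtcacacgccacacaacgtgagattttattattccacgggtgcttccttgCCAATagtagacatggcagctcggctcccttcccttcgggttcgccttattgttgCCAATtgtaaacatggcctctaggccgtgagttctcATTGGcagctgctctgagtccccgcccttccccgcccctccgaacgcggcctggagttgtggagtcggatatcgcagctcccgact
XRN1, chr3:142448038-142448287, minus strand: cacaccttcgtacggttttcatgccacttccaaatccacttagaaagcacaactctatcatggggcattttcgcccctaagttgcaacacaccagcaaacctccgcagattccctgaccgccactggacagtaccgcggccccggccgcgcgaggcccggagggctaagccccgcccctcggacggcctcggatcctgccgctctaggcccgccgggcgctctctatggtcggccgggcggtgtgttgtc

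EXOSC9 has 1 CCAAT box, which begins 76 bases before the start, and EXOSC2 has 3. LSM3 has 2 ETS matches, 44 and 20 bases before the start. The XRN1 window holds 0 matches, which says only that these letters are not in it. Among 27305 RefSeq promoter windows of this length, 33.0% hold CCAAT, 14.8% CCGGAA, 6.49% CACGTG and 1.13% the NRF1 site. Among the 46 members with a window, 18 hold CCAAT, 11 CCGGAA, 5 CACGTG and 2 the NRF1 site. These are letter matches and do not show binding.

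The decapping enzyme and its activators did not move as 1 group in Differentiation, with a class median of -0.05 over 8 genes. DCP1A, the coactivator of the decapping enzyme, stood at 10.81 in siSTAU1, 10.70 in siUPF1, 10.82 in siControl, 11.01 in Differentiation and 10.83 in Nondifferentiation. DCP2, which cuts the cap, had 10.66 in Differentiation against 11.07 in Nondifferentiation, a log2 fold of -0.41. DCP1B, a paralogue of DCP1A, stood at 6.63, 6.64, 6.10, 6.46 and 6.59 in siSTAU1, siUPF1, siControl, Differentiation and Nondifferentiation and lay below the floor in every comparison. The scaffolds EDC3 and EDC4 had log2 folds of -0.10 and -0.01, and an exon of an unnamed gene model on the same strand overlaps the end of EDC4. The values of DCP1A, EDC3 and EDC4 in Differentiation thus lay within 1.5-fold of Nondifferentiation, where 43.6% of all measured genes lay past it.

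DDX6, the helicase that binds PATL1 and the LSM ring and represses translation, stood at 12.90 in siSTAU1, 12.81 in siUPF1, 12.86 in siControl, 13.34 in Differentiation and 12.71 in Nondifferentiation. It was 1.55-fold higher in Differentiation, a log2 fold of 0.63 with a counting SE of 0.02, and the other 4 libraries lay within 0.19 of each other. PATL1, the bridge between the ring and the decapping enzyme, stood at 8.48 in siSTAU1, 8.20 in siUPF1, 8.42 in siControl, 7.35 in Differentiation and 8.43 in Nondifferentiation. It went the other way, 2.11-fold lower at -1.08 with a counting SE of 0.12. PNRC2, which links UPF1 to DCP1A, stood at 8.99, 9.11, 9.28, 8.83 and 8.69 in siSTAU1, siUPF1, siControl, Differentiation and Nondifferentiation. Its largest gap was a log2 fold of 0.60 for siControl against Nondifferentiation. DCPS, the scavenger enzyme that clears the cap left behind by the exosome, stood at 8.22 in siSTAU1, 8.13 in siUPF1, 8.28 in siControl, 6.65 in Differentiation and 8.02 in Nondifferentiation. It was 2.58-fold lower in Differentiation, -1.37 with a counting SE of 0.15, and 6.11% of measured genes had a log2 fold as low or lower.

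The 5' exonucleases had log2 folds of opposite sign in Differentiation. XRN1, the cytoplasmic enzyme, stood at 9.39 in siSTAU1, 9.34 in siUPF1, 9.31 in siControl, 10.25 in Differentiation and 9.55 in Nondifferentiation, 1.63-fold higher at 0.71 with a counting SE of 0.06. XRN2, the nuclear enzyme of transcription termination and RNA trimming, stood at 9.93 in siSTAU1, 9.84 in siUPF1, 10.28 in siControl, 9.47 in Differentiation and 9.83 in Nondifferentiation. Its log2 fold of -0.35 was smaller in size than the gap of 0.45 between siControl and Nondifferentiation. For XRN1 that gap was -0.24, and its value in Differentiation was above all 4 other libraries.

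The CCR4-NOT deadenylase complex had a median log2 fold smaller in size than those of the LSM ring and the exosome core. CNOT1, the scaffold of CCR4-NOT, had 11.26 in Differentiation against 11.54 in Nondifferentiation, and the class of 10 subunits had a median log2 fold of -0.19. Of 9 measured subunits 1 was 1.5-fold higher and 1 was 1.5-fold lower, where 21.8% of all measured genes were higher and 21.7% lower. CNOT4, a ubiquitin ligase, stood at 8.98 in siSTAU1, 8.72 in siUPF1, 9.13 in siControl, 8.98 in Differentiation and 8.31 in Nondifferentiation. Its log2 fold of 0.68 in Differentiation rested on a low Nondifferentiation value, since siControl against Nondifferentiation gave 0.83, and against siControl the Differentiation fold was -0.15. The nuclease CNOT6 stood at 10.16, 10.02, 10.07, 9.45 and 10.06 in siSTAU1, siUPF1, siControl, Differentiation and Nondifferentiation, and was 1.53-fold lower in Differentiation. CNOT6L, its paralogue, stood at 9.38, 8.70, 9.10, 8.98 and 9.12 in the same libraries and had -0.15.

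CNOT7 and CNOT8, the other nucleases of the complex, stood at 10.76 and 12.45 in Differentiation and at 11.16 and 12.04 in Nondifferentiation. In siSTAU1, siUPF1 and siControl CNOT7 stood at 11.34, 11.01 and 11.09, and CNOT8 at 12.06, 12.09 and 12.14. CNOT7 was lowest and CNOT8 highest of the 5 libraries in Differentiation, with log2 folds of -0.40 and 0.41. CNOT3, a subunit below the floor, stood at 7.38, 7.38, 7.42, 7.18 and 7.69 in siSTAU1, siUPF1, siControl, Differentiation and Nondifferentiation. Its end overlaps LENG1 on the opposite strand, which had -0.58 in Differentiation, where CNOT3 had -0.51. The end of CNOT1 overlaps SETD6, which had -0.04. CNOT10 stood at 9.95, 9.39, 9.90, 9.83 and 9.84 in the same libraries, and CNOT2 and CNOT11 had 0.17 and -0.23 in Differentiation.

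PAN3, which recruits the PAN2 nuclease to poly(A)-binding protein, stood at 7.87 in siSTAU1, 7.88 in siUPF1, 7.75 in siControl, 8.27 in Differentiation and 7.69 in Nondifferentiation, a log2 fold of 0.58 in Differentiation that lay just under 1.5-fold. PAN2 stood at 7.84, 7.47, 7.21, 7.34 and 7.27 in the same libraries. PARN, a deadenylase of small and maternal RNAs, had 9.38 in Differentiation and 8.92 in Nondifferentiation, a log2 fold of 0.46, while siControl against Nondifferentiation gave 0.47.

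TOB1, TOB2, BTG1 and BTG2, antiproliferative proteins that recruit the CCR4-NOT nucleases, all had positive log2 folds in Differentiation, with a class median of 0.46. Of the 3 measured members 0 reached 1.5-fold, against 43.6% of all measured genes in either direction. TOB1 stood at 8.87 in siSTAU1, 8.62 in siUPF1, 9.00 in siControl, 9.79 in Differentiation and 9.32 in Nondifferentiation, a log2 fold of 0.47 with a counting SE of 0.07. TOB2 stood at 8.34, 8.28, 8.40, 9.05 and 8.60 in the same libraries, at 0.45. In both the Differentiation value was the highest of the 5 libraries. BTG1 stood at 10.84, 10.68, 10.82, 10.72 and 10.62, at 0.10. BTG2, which is also a p53 target and an early response gene, stood at 4.50 in siSTAU1, 3.54 in siUPF1, 3.93 in siControl, 6.76 in Differentiation and 5.22 in Nondifferentiation. These values came from about 18, 11, 12, 178 and 35 reads and lay below the floor. The log2 fold of BTG2 in Differentiation was 1.54 with a counting SE of 0.27, and siControl against Nondifferentiation gave -1.30 with a counting SE of 0.48.

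The exosome's 3 catalytic subunits had a median log2 fold of -0.17 in Differentiation, beside -0.79 for the 7 measured core subunits, and that difference was not tested. EXOSC10, the nuclear exonuclease, stood at 9.76 in siSTAU1, 9.80 in siUPF1, 9.91 in siControl, 9.58 in Differentiation and 10.12 in Nondifferentiation, at -0.54. DIS3 stood at 10.91, 10.72, 10.86, 10.61 and 10.78 in the same libraries, at -0.17. DIS3L, the cytoplasmic form, stood at 8.68 in siSTAU1, 8.51 in siUPF1, 8.90 in siControl, 8.96 in Differentiation and 8.51 in Nondifferentiation, at 0.45, where siControl against Nondifferentiation gave 0.40. All 3 thus lay within 1.5-fold in Differentiation, where 43.6% of all measured genes lay past it.

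The SKI complex, the helicase assembly that feeds mRNA into the cytoplasmic exosome, had a class median of 0.01 in Differentiation. SKIV2L, the helicase, stood at 7.80, 7.89, 7.90, 8.30 and 7.93 in siSTAU1, siUPF1, siControl, Differentiation and Nondifferentiation. TTC37, the scaffold, stood at 8.41, 8.35, 8.58, 8.45 and 8.44, and WDR61 at 9.61, 9.57, 9.61, 9.41 and 9.63 in the same libraries. Their log2 folds in Differentiation were 0.38, 0.01 and -0.22, so that none reached 1.5-fold, where 43.6% of all measured genes did. Of the genes linked to nonsense-mediated decay, the helicase DHX34 stood at 6.63, 6.22, 6.55, 5.47 and 6.47, and NBAS at 8.58, 8.51, 8.26, 8.39 and 8.07 in these libraries. DHX34 was below the floor, with a log2 fold of -1.01 in Differentiation from about 72 and 84 reads, and NBAS had 0.32.

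Differentiation was the lowest of the 5 libraries for 25 of the 45 measured members, or 55.6%, against 39.5% of all measured genes, and the highest for 9, or 20.0%, against 41.5%. It was lowest for all 9 exosome core and all 7 LSM genes, by only 0.01 for EXOSC8 and 0.08 for LSM1. EXOSC1 and EXOSC5 among them lay below the floor. The other 4 libraries lay close together, with a median range of 0.27 over the measured members and 0.34 over all measured genes.

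Neither knockdown put a measured member past 2-fold, and few of all measured genes were past it. In siSTAU1 against siControl 46 members were measured, 0 were 2-fold higher or lower, against 0.201% of all 8454 measured genes, of which 0.0946% were higher and 0.106% lower. At 1.5-fold 1 member was higher, against 1.02% of all measured genes higher, 1.29% lower and 2.31% in either direction. That member was PAN2, at 7.84 in siSTAU1 and 7.21 in siControl, a log2 fold of 0.63 with a counting SE of 0.17. It sat at the floor, and with the floor set on the mean of the 5 libraries it was not measured. The median log2 fold over the 46 members was 0.01, as it was over all measured genes. XRN2 had -0.35, EXOSC2 -0.40 and LSM7 0.34 in siSTAU1. With Nondifferentiation as the reference XRN2 turned to 0.10, EXOSC2 had -0.09 and LSM7 0.17, while PAN2 had 0.57.

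In siUPF1 against siControl 45 members were measured, and 0 were past 2-fold, against 0.543% of 8475 genes, of which 0.401% were higher and 0.142% lower. Past 1.5-fold there were 0, against 4.55%, of which 3% were higher and 1.56% lower. The median log2 fold was -0.10 over the members and -0.01 over all measured genes, with 35 of 45 below 0. The 10 CCR4-NOT subunits among the members all had log2 folds below 0, with a median of -0.18. They ran from -0.51 for CNOT10 to -0.04 for CNOT3. Of all measured genes 51.7% had a log2 fold of -0.001 or lower, and RQCD1, a CCR4-NOT subunit outside the members, had 0.08. CNOT4 and CNOT6L followed CNOT10 at -0.41 and -0.40, each with a counting SE of 0.10. The 9 exosome core genes had a median of 0.03, from EXOSC9 at -0.47 to EXOSC8 at 0.10. CCNA2, which overlaps EXOSC9, had -0.47 as well. The LSM ring had a median of -0.07, with LSM6 at -0.32 and LSM7 at 0.40, and DIS3L had -0.40. With Nondifferentiation as the reference the member median in siUPF1 was 0.00, so the small shift below 0 was seen only against siControl. Nondifferentiation has no siRNA listed and lists retinoic acid, so it cannot settle that shift. Under that reference CNOT4 turned to 0.42 and CNOT8 to 0.05, and CNOT2 stood higher in siUPF1, at 10.35, than in Nondifferentiation, at 10.22. DIS3L then had 0.00, LSM6 -0.04 and EXOSC9 -0.18, while CNOT10 had -0.45 and CNOT6L -0.42. The difference of -0.10 is of the same size as the 0.10 that siControl had over 44 members against Nondifferentiation.

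That last pair, siControl against Nondifferentiation, sets a library with a control siRNA against one with no siRNA listed, and the media listed for them differ in retinoic acid. Of its 44 measured members 0 were past 2-fold, against 0.796% of 8547 genes, of which 0.222% were higher and 0.573% lower. At 1.5-fold 2, CNOT4 and PNRC2, were higher, against 2.26% of all measured genes higher, 3.21% lower and 5.46% in either direction. Both knockdown comparisons share siControl, so their values are not independent.

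**Figure D3:**
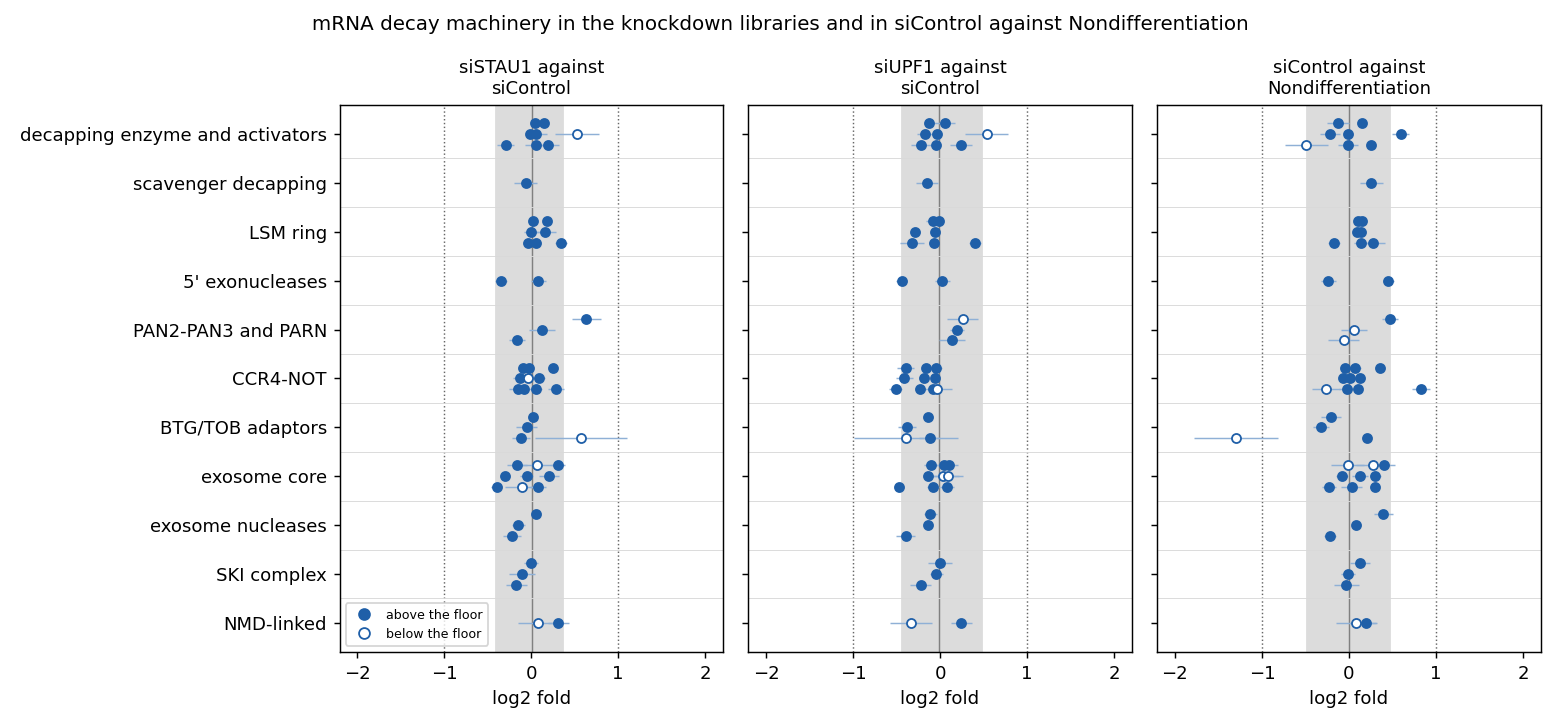
Log2 folds (x axis) of the 52 members by role (y axis) for siSTAU1 against siControl, siUPF1 against siControl and siControl against Nondifferentiation, with bars, band and lines as in the plot of Differentiation folds. Measured members lie inside 2-fold in all 3 panels, and BTG2, at -1.30 in the last panel, lies below the floor.

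Within each library the balance between 7 pairs of paralogues or related enzymes was taken as the log2 ratio of their values. XRN1 over XRN2 had 0.78 in Differentiation and -0.28 in Nondifferentiation, a change of 1.06 with a counting SE of 0.09, so that XRN1 made up 63.2% of the summed linear value in Differentiation and 45.2% in Nondifferentiation. CNOT7 over CNOT8 had -1.69 in Differentiation and -0.88 in Nondifferentiation, a change of -0.81 with a counting SE of 0.05. CNOT7 thus gave 23.6% of the pair in Differentiation and 35.2% in Nondifferentiation. DIS3 over DIS3L changed by -0.61 and CNOT6 over CNOT6L by -0.47. TOB1 over TOB2 changed by 0.02, which is within its counting SE of 0.11. DCP1A over DCP1B changed by 0.31, with a counting SE of 0.20, and DCP1A made up between 94.3% and 96.3% of its pair in all 5 libraries. BTG1 over BTG2 changed by -1.43, with a counting SE of 0.27, and rested on the few reads of BTG2. In siUPF1 against siControl the largest changes were -0.66 for DCP1A over DCP1B and 0.47 for XRN1 over XRN2, with counting SEs of 0.25 and 0.11. In siSTAU1 against siControl they were -0.56 for BTG1 over BTG2 and -0.54 for DCP1A over DCP1B, with counting SEs of 0.54 and 0.26, and XRN1 over XRN2 changed by 0.43 and CNOT7 over CNOT8 by 0.33, with counting SEs of 0.11 and 0.06. BTG1 over BTG2 also had 6.90 in siControl and 5.39 in Nondifferentiation, a gap larger in size than its change in Differentiation. The gap between siControl and Nondifferentiation was -0.69 for XRN1 over XRN2, 0.48 for DCP1A over DCP1B, -0.31 for DIS3 over DIS3L, 0.03 for CNOT6 over CNOT6L, -0.11 for TOB1 over TOB2 and -0.17 for CNOT7 over CNOT8.

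**Figure D4:**
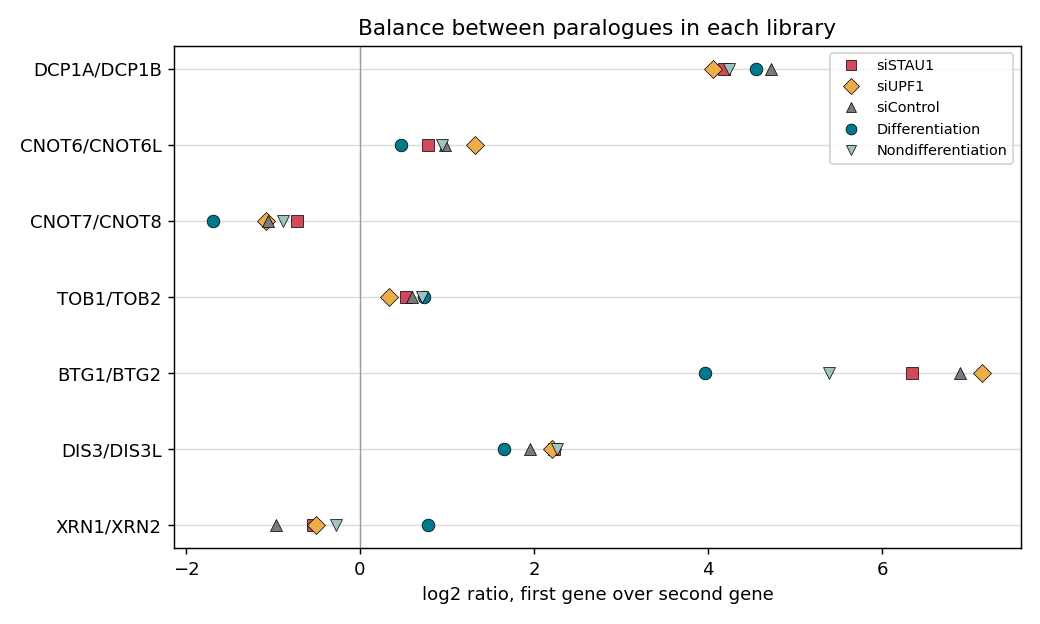
Log2 ratio of the first over the second gene (x axis) for 7 pairs (y axis) in each of the 5 libraries (symbols). XRN1 over XRN2 is above 0 in Differentiation, at 0.78, and below 0 elsewhere, and CNOT7 over CNOT8 is lowest in Differentiation, at -1.69.

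Of 42 other decay genes 41 were in the files, and 36 of them were measured in Differentiation against Nondifferentiation. Of these 2 were 2-fold higher, 1 was 2-fold lower, 6 were 1.5-fold higher and 5 were 1.5-fold lower, and their median was 0.00. At 2-fold this is 8.33% of them, against 21.3% of all measured genes, and at 1.5-fold 30.6%, against 43.6%. ZFP36L1 and ZFP36L2, which bind AU-rich elements and recruit CCR4-NOT, were the 2 higher genes. ZFP36L1 stood at 9.04 in Differentiation and 7.35 in Nondifferentiation, and ZFP36L2 at 11.41 and 9.84, log2 folds of 1.69 and 1.57. TNRC6B, which links Argonaute to the deadenylases, had 0.96. The lower gene was MPHOSPH6, a nuclear exosome cofactor, at 7.94 in Differentiation and 9.14 in Nondifferentiation, a log2 fold of -1.20. The poly(A)-binding protein PABPC4 had -0.86, and RQCD1, a CCR4-NOT subunit outside the members, had -0.65. In siUPF1 against siControl 35 were measured, 0 reached 1.5-fold, and SMG6 at 0.43 and ZFP36L2 at 0.38 were among the highest. RC3H2 at -0.54, HBS1L at -0.52 and DIS3L2 at -0.47 were lowest. In siSTAU1 against siControl 0 of 36 reached 1.5-fold, with ZFP36L2 highest at 0.39, ahead of ZFP36L1 at 0.35 and ZCCHC8 at 0.33. DIS3L2 was lowest at -0.37, with AGO1 at -0.36 and SMG5 at -0.33. In siControl against Nondifferentiation 0 of 35 reached 1.5-fold, and MPHOSPH6, AGO1 and TNRC6B were highest at 0.41, 0.36 and 0.35, while ZFP36L2 and RBM7 were among the lowest at -0.29 and -0.28.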

How the data were processed

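The authors deposited log2 values, 1 per gene symbol and library. Per the labels' protocols, QuantSeq libraries were made from 500 ng of total RNA. The submitters' processing notes list Bowtie2, edgeR and the hg19 build with no version and no word on what each did. The sources used here do not state the counting tool, the annotation or the use of strand. The highest value, 18.01, and the upper quartile, 8.63 to 8.64, were the same or nearly so in all 5 libraries, and 100% of nonzero linear values were multiples of 1/5 within 0.001. That pattern is that of quantile normalization, an inference from the values, and such scaling removes differences in total RNA between libraries.

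Log2 folds were differences of deposited values. Reads were estimated from the slope of the 50 lowest distinct linear values, and counting SEs cover counting error only. The steps were tested on simulated data. No test was run. The members and lists were chosen with earlier results of these data known. Values in all libraries are given for members at 1.5-fold and above the floor, the extremes of each role class and the paralogue pairs; EXOSC1, EXOSC5, DCP2, EDC3, EDC4, PARN, CNOT1, CNOT2 and CNOT11 fall outside that rule and were named after their values were seen. Overlaps of 3' ends and pseudogenes were looked up by name in GENCODE 29, which is of another build. SKIV2L, TTC37 and WDR61 were matched to RefSeq by synonym. Alternatives were no floor, a floor on the mean of 5 libraries, a pseudocount of 16, centring, and another reference. Python 3.11.15, numpy 2.4.6, pandas 2.3.3 and matplotlib 3.10.9 were used. 1 gene of the list of other decay genes is not reported here.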

Additional observations from a re-analysis of the deposited data

How the results depend on the processing

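No paired analysis was possible because each group has 1 library. Centring on the median fold changed no count by more than 1.5 times. In siSTAU1 the 1 member past 1.5-fold became 0 with the floor on the mean of 5 libraries and 0 with a pseudocount of 16. With Nondifferentiation as the reference the member medians were 0.13 in siSTAU1 and -0.0008 in siUPF1, and 2 members of siUPF1 were past 1.5-fold. Of the 86 single-gene knockdown folds under that reference 45 moved beyond their counting interval and 25 turned sign, so these values depend on the control library. Each gene enters these counts once per knockdown, and both of its folds shift by the same gap between siControl and Nondifferentiation. The counts are thus not independent, and they cover only genes chosen in part for large folds. Some sign turns are small, as for LSM5 in siUPF1, from -0.01 to 0.08. In siControl against Nondifferentiation 1 member, BTG2, was past 2-fold without a floor, 1 was past 1.5-fold with the pseudocount, and 0 were without members that share 3' sequence. No share of all genes was taken for these alternatives of the knockdown and siControl pairs. Without a floor the 8 members 2-fold lower in Differentiation were 11, beside 1 higher, where 13.1% of all genes were lower. After centring they were 9, and no share of all genes was taken. They were 6 of 30 without members whose last 300 bases overlap another gene's exon or that have a named pseudogene. There the median was -0.22, and 10.9% of all measured genes were 2-fold lower. That alternative and siControl as the reference were chosen after seeing the data. With siControl 10 were 2-fold lower, 5 of them LSM genes, against 12.3% of all measured genes. The median was -0.25, 22 single-gene folds moved beyond their counting interval, and CNOT4 turned to -0.15. The paralogue changes were then -0.17 for DCP1A/DCP1B, -0.64 for CNOT7/CNOT8, -2.94 for BTG1/BTG2, -0.30 for DIS3/DIS3L and 1.75 for XRN1/XRN2. The cause of these moves was not tested. Depth limits BTG2, DCP1B, DHX34 and EXOSC5 most.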
